A study of Mus musculus with 2 samples.

Results

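The mouse mitochondrial genome carries 37 annotated genes, and their RNAs were measured in the liver of 2 newborn B6NCrl mice. The members were all genes whose symbol starts with mt-, namely 13 mRNAs, 2 rRNAs and 22 tRNAs, out of 43346 Ensembl genes and 69691 rows in each table. Both pups were untreated as far as the labels say and were 0 days old. Per the labels they came from 1 pregnant dam, so they form 1 group of 2 littermates, and their sex was not collected. Each library held RNA of 1 whole liver, extracted with the mirVana kit, longer than 200 nt, with 10 ng as the starting amount and ERCC spike-in RNAs added. The liver of pup 1 gave 42124582 expected counts and that of pup 2 gave 41443673, where an expected count is an estimated number of reads in which a read that matches several genes is divided among them. Of the 37 members 15 had reads, and the 22 tRNA genes had none. B6NCrl is an inbred strain, and whole liver at birth mixes hepatocytes with blood-forming and other cells. In such bulk RNA, fewer cells of a type and less RNA per cell cannot be told apart.

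Mitochondria keep a small circular genome of their own that codes for core subunits of the respiratory chain and for the RNAs of the ribosomes that translate them. Each strand is transcribed as a long precursor, the tRNAs that lie between the other genes are cut out, and most of the freed mRNAs then receive short poly(A) tails, which can complete a stop codon. The proteins belong to complex I, which takes electrons from NADH, complex III, which passes them to cytochrome c, complex IV, which hands them to oxygen, and complex V, which makes ATP. Hepatocytes are rich in mitochondria, and the liver turns to respiration and fat oxidation around birth. Pieces of mitochondrial DNA have also been inserted into the nuclear chromosomes in the course of evolution, and such nuclear copies can match the mitochondrial genes closely.

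The members lay close together in the annotation (GENCODE M21, GRCm38). Of the 36 pairs of neighbours 9 overlapped, 12 abutted and 15 had a gap, at most 32 bases, between mt-Tn and mt-Tc. The plus strand held 12 mRNAs, both rRNAs and 14 tRNAs, and the minus strand held mt-Nd6 and 8 tRNAs. The sequences printed here are from the GENCODE M21 transcripts, 5′ to 3′, and show shared bases, annotated ends and nuclear matches. The first 2 show neighbours that share bases. mt-Atp8 and mt-Atp6 overlap by 43 bases (chrM:7927-7969, plus strand), where the capitals mark the start codon of mt-Atp6 and the stop codon of mt-Atp8. The last 30 bases of mt-Nd4l (chrM:10144-10173, plus strand) end in 7 bases shared with mt-Nd4, in capitals.
mt-Atp8 with mt-Atp6: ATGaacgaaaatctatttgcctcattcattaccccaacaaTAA
mt-Nd4l with mt-Nd4: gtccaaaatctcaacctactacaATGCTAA

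The annotated end of 3 mRNAs, mt-Co3, mt-Nd4 and mt-Cytb, was the T of an incomplete stop codon, in capitals below, whereas mt-Nd1 ended in a whole one. The bases lie at chrM:9361-9390, chrM:11515-11544, chrM:15259-15288 and chrM:3678-3707, all on the plus strand. The same final T of mt-Co3 was the single base of this gene that lay beyond the annotated row of its nuclear copy on chromosome 1.
mt-Co3: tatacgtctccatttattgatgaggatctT
mt-Nd4: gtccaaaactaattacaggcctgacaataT
mt-Cytb: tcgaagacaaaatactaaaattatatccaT
mt-Nd1: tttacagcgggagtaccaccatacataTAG

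Nuclear rows that matched the members are shown next, because they received reads. A run of 4663 bases on chromosome 1 (chr1:24611535-24616197, minus strand) held 7 annotated pseudogenes that matched mt-Co1, mt-Co2, mt-Atp6, mt-Co3, mt-Nd3, mt-Nd4l and mt-Nd4. Over all aligned bases these 7 carried 2 substitutions against the members, A1066T in Gm29216 against mt-Co1 and T3C in Gm28438 against mt-Nd3, with positions counted from 1 at the first base of the member. The capitals mark these substitutions at chrM:6390-6413 against chr1:24616165-24616188 and at chrM:9459-9481 against chr1:24613097-24613119. All these sequences are those of GRCm38, and the bases that the B6NCrl mice carry at these positions were not determined. Whether either substitution parts member from copy in these mice was thus not tested.
mt-Co1: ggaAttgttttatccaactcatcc
Gm29216: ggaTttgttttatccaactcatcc
mt-Nd3: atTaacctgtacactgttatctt
Gm28438: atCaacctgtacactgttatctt

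For contrast, the copy of mt-Co1 on chromosome 2, Gm13340, differed from it by 37 substitutions over 1545 bases. The stretch shown, chrM:6007-6047 against chr2:22588928-22588968 on the minus strand, held 4 of them, in capitals. This copy received 68.5 expected counts in pup 1 and 73.5 in pup 2, whereas the chromosome 1 copy of the same gene received 74688 and 81857.
mt-Co1: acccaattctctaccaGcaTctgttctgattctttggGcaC
Gm13340: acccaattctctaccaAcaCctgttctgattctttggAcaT

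The tRNAs could not be measured in these tables. They were between 59 and 75 nt long, and the tables give each row an effective length, the number of positions at which a read can start, that was 99 less than the length. All 22 therefore had an effective length of 0 and were listed at 0 expected counts in both livers. RNA under 200 nt was also removed before the libraries were made, per the labels. The shortest and the longest are printed to show the size of what was missed: mt-Ts2, a serine tRNA (chrM:11613-11671), and mt-Tl1, a leucine tRNA that follows the large rRNA (chrM:2676-2750), both on the plus strand.
mt-Ts2: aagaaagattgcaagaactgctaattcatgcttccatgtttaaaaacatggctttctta
mt-Tl1: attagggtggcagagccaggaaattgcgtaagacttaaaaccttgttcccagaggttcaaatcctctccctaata

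Levels are given first as deposited, in TPM, which is reads per effective length, scaled so that each table has the same sum, and so allows genes to be compared. The 15 long members together held 4.64% of TPM in pup 1 and 5.17% in pup 2, or 4.91 ± 0.375% (SD, n = 2). By complex, the mean share was 1.84 ± 0.177% for complex V with 2 genes, 0.930 ± 0.102% for complex IV with 3 and 0.863 ± 0.0196% for complex I with 7. It was 0.332 ± 0.0379% for mt-Cytb, the one member of complex III, and 0.944 ± 0.0383% for the 2 rRNAs (all SD, n = 2). The design has 1 group, so conditions could not be contrasted, and p-values are left out since the smallest that exact permutation of 2 livers allows is 0.5.

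**Figure D1:**
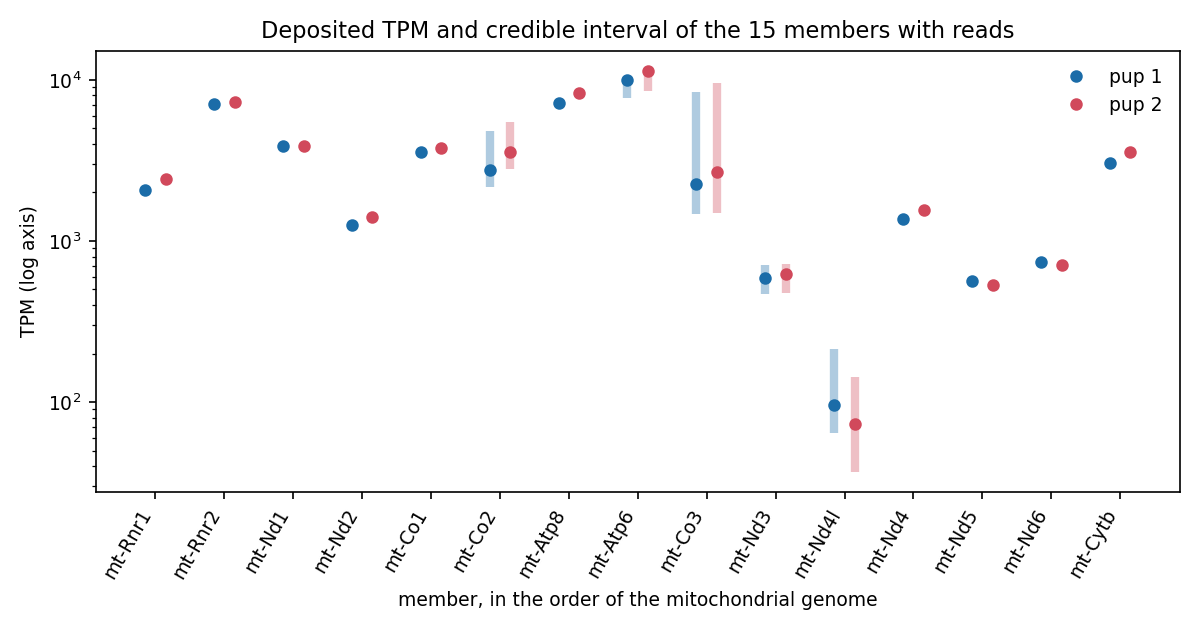
Deposited TPM of the 15 members with reads (y axis, log scale) in the order of the mitochondrial genome (x axis); points are the 2 livers and bars the authors' credible interval of TPM in each. Most bars are shorter than the point, while those of mt-Co3 run from 1462 to 8442 in pup 1 and from 1499 to 9568 in pup 2. For 5 of the 15 members the TPM lies inside its interval in both livers, and for the others it lies above the upper bound.

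The RNAs of the mitochondrial ribosome differed from each other in level. mt-Rnr1, the RNA of the small subunit (chrM:70-1024), was at 2082 TPM in pup 1 and 2435 in pup 2. mt-Rnr2, the RNA of the large subunit (chrM:1094-2675), was at 7086 and 7275 TPM and took 0.887% and 0.932% of all expected counts. The large-subunit RNA was above the small-subunit RNA in both livers, by 1.67 ± 0.13 on the log2 TPM scale (SD, n = 2), or 3.19-fold, although a ribosome holds the pair in equal number. Neither rRNA shared a run of 100 bases with any nuclear row. The protocols cite a low-input cDNA kit manual without saying which reagents were used, so how RNAs with little or no poly(A) tail were primed is not known. The 5 listed RNAs that carry no such tail differed widely in level. The signal recognition particle RNAs Rn7s1 and Rn7s2 were each listed above 11178 TPM in both livers, above mt-Rnr2. Their expected counts were nearly equal and not whole numbers, at 79937.3 and 79942.72 in pup 1. Whether reads were divided between these 2 genes was not tested, so neither value may be the level of 1 gene. Rn7sk was at 173 TPM in pup 1 and 164 in pup 2, Rpph1 at 107 and 106 and Rmrp at 3.58 and 1.62.

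Complex I, whose members form the membrane arm of the NADH dehydrogenase, spanned the widest range. mt-Nd1 (chrM:2751-3707), the first protein gene after the rRNAs, was at 3862.94 TPM in pup 1 and 3862.78 in pup 2, the closest agreement of the 15 members. mt-Nd2 (chrM:3914-4951) was at 1262 and 1415 TPM, and mt-Nd4 (chrM:10167-11544) at 1368 and 1550. These 3 had the highest deposited levels of the 7 complex I genes in both livers.

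The other complex I genes were lower as deposited. mt-Nd3 (chrM:9459-9806) was at 593 TPM in pup 1 and 628 in pup 2, and mt-Nd5 (chrM:11742-13565), the longest member, at 565 and 532. mt-Nd6 (chrM:13552-14070), the single mRNA on the minus strand, was at 745 and 709 TPM. mt-Nd4l (chrM:9877-10173) was lowest of all at 96.1 and 73.6 TPM, from 677 and 522 expected counts. mt-Nd6 also stood apart in base composition: G made up 28.1% and C 5.97% of its bases, whereas G was between 5.88% and 16.1% in the 12 mRNAs of the plus strand. Its last 14 bases lie opposite those of mt-Nd5, and whether counting used the strand is not given in the sources used here, so reads from the 2 strands at mt-Nd6 cannot be told apart. mt-Nd5 was below mt-Nd6 in both livers, by −0.41 ± 0.011 on the log2 TPM scale (SD, n = 2).

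The member of complex III was mt-Cytb (chrM:14145-15288), which codes for the cytochrome b at the catalytic centre of that complex. It was at 3053 TPM in pup 1 and 3588 in pup 2, from 113501 and 134287 expected counts. Its level was 4.55-fold that of mt-Nd6, from which mt-Te parts it, a log2 ratio of TPM of 2.19 ± 0.22 (SD, n = 2).

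The 3 genes of complex IV code for the catalytic core of cytochrome c oxidase. mt-Co1 (chrM:5328-6872), which carries the site where oxygen binds, was at 3572 TPM in pup 1 and 3775 in pup 2. mt-Co2 (chrM:7013-7696), which receives electrons from cytochrome c, was at 2758 and 3573 TPM, and mt-Co3 (chrM:8607-9390), a structural core subunit, at 2255 and 2676. As deposited the order was mt-Co1, mt-Co2, mt-Co3 in both livers. The intervals around these values differed widely: the authors' upper credible bound was 1.01 times the lower one for mt-Co1 in each liver, but 2.25 and 1.95 times for mt-Co2 and 5.77 and 6.38 times for mt-Co3.

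Complex V had the highest TPM as deposited. mt-Atp6 (chrM:7927-8607), a subunit of the proton channel, was at 9929 TPM in pup 1 and 11374 in pup 2 and ranked 13 among all Ensembl genes by mean TPM. mt-Atp8 (chrM:7766-7969), a small subunit of the stalk, was at 7216 and 8277 TPM, with ranges that overlapped those of mt-Rnr2. mt-Atp6 exceeded mt-Atp8 by 0.46 ± 0.0013 on the log2 TPM scale (SD, n = 2), although both coding sequences are known to lie on 1 mature mRNA. By posterior mean TPM, a second deposited estimate, the difference was 0.30 ± 0.035, and with the nuclear copy of mt-Atp6 added 0.51 ± 0.015. These SDs cover the 2 livers and not the division of reads between mt-Atp6 and its copy. mt-Atp8 is 204 bases long with an effective length of 105, and with full lengths in place of effective lengths the ratio was 1.19 on the log2 scale.

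Whole-number counts and the posterior SD of the count split the members by whether a nuclear row held the same sequence. Every window of 100 bases in each member was looked up in all nuclear rows. The 7 members with no such window, mt-Rnr1, mt-Rnr2, mt-Nd1, mt-Atp8, mt-Nd5, mt-Nd6 and mt-Cytb, had whole-number counts in both livers and a posterior SD of the count of at most 0.04 reads. The other 8 shared windows with a nuclear row, and none of them had a whole-number count in both livers. Adding the counts of the nuclear rows that share windows gave sums within 0.02 of a whole number in both livers for 8 of 8. For mt-Co3 the deposited 54963.91 and 65637.62 counts became 277294 and 290868, and for mt-Nd4l 677.15 and 521.78 became 5912 and 6940. The credible intervals did not follow this split: upper over lower bound was 1.01 for mt-Co1 and 1.02 for mt-Nd4 in pup 1, which share windows, and 1.04 for mt-Nd6, which shares none. No window of 100 bases occurred in 2 members.

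How the reads of a pair were divided differed from gene to gene. Gm28437 (chr1:24613189-24613971) is identical to mt-Co3 over 783 of its 784 bases and held 222330 counts in pup 1 and 225230 in pup 2, which is 80.2% and 77.4% of the reads of the pair. Gm10222 (chr1:24612407-24612700) is identical to mt-Nd4l over 294 of 297 bases and held 88.5% and 92.5%. Gm28438 (chr1:24612775-24613119) matches mt-Nd3 over 345 bases and held 75.4% and 76.4%. For these 3 genes most reads of the pair stood under the nuclear name.

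For 2 further genes the copy held a middle share of the reads. Gm28661 (chr1:24614885-24615565) is identical to mt-Co2 over 681 of 684 bases and held 50.1% in pup 1 and 42.1% in pup 2. Gm29216 (chr1:24615706-24616197) covers bases 1063 to 1545 of mt-Co1, or 26.3% of its windows, and held 28.9% and 29.5%. The remaining 2 copies held little. Gm10925 (chr1:24613974-24614651) is identical to mt-Atp6 over 678 of 681 bases and held 3.93% and 2.66%, and Gm28439 (chr1:24611535-24612410), identical to bases 1 to 876 of mt-Nd4, held 0.0145% and 0.00455%. Copies identical to their gene over the whole aligned length thus held from 0.00455% to 92.5% of the reads of the pair.

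**Figure D2:**
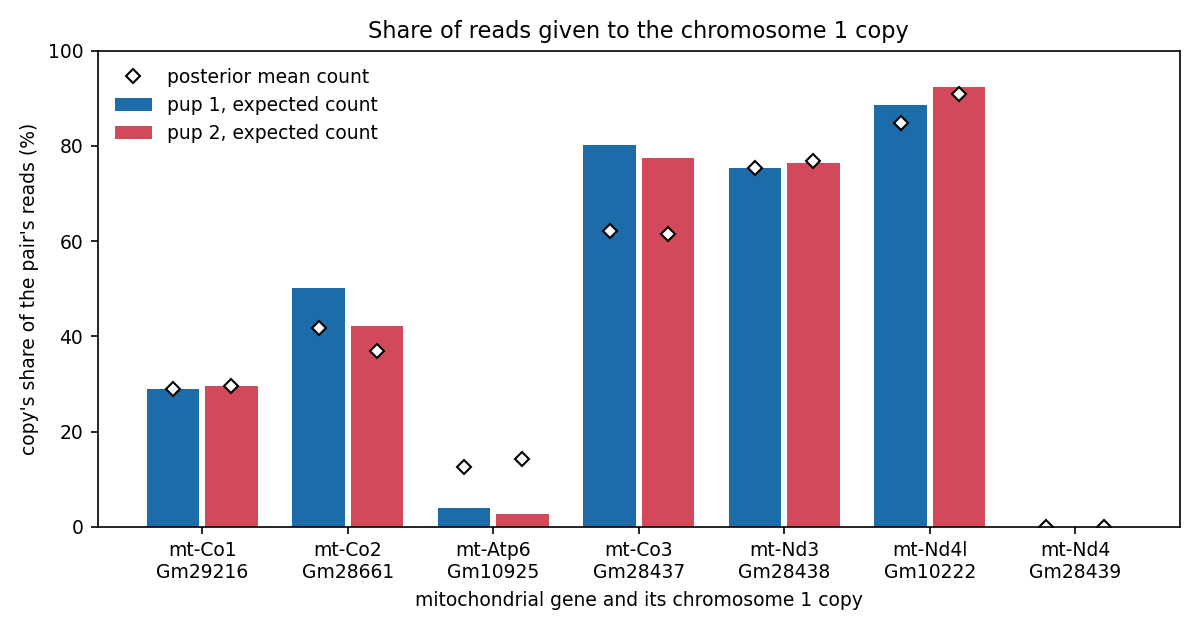
Share of the reads of each pair that was given to the chromosome 1 copy (y axis, percent), for the 7 members with such a copy (x axis); bars are the expected counts of the 2 livers and diamonds the authors' posterior mean counts. The expected counts gave Gm28437 80.2% and 77.4% of the mt-Co3 reads where the posterior mean counts gave 62.2% and 61.6%.

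The second estimate in the tables, the posterior mean, divided some pairs differently. For mt-Co3 it gave 4235 TPM in pup 1 and 4481 in pup 2, above the 2255 and 2676 of the first estimate. For mt-Atp6 it gave 8900 and 9868 TPM, below the 9929 and 11374 of the first, and its copy then held 12.5% and 14.2% of the pair. The posterior SD of the count was 62654 and 70032 reads for mt-Co3, and that of its copy was the same to 0.04 reads. The level of mt-Co3, read by itself from these tables, was thus uncertain by 59.8% in pup 1 and 62.7% in pup 2 of its posterior mean count. The coefficient of variation between the livers, taken on the TPM of the first estimate, was lower at 12.1%.

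Together the 7 chromosome 1 copies held 384486 expected counts in pup 1 and 392467 in pup 2, which is 0.913% and 0.947% of each library. The other 8 nuclear copies found in the tables held 130 and 110. Reads that fit a member and its copy equally cannot be assigned to either from the tables, and transcription of the nuclear run was not tested. To set this division aside, the counts of each member and its chromosome 1 copy were added and set over the effective length of the member. The chromosome 2 rows that share windows with mt-Co1, mt-Co2 and mt-Nd2 were left out of these sums; with them the counts of pup 1 were 258528 in place of 258459.51 for mt-Co1 and 115170 in place of 115109.48 for mt-Co2. These summed values, called pooled below, were introduced after the deposited values had been seen.

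Pooling moved complex IV most. mt-Co3 went to 11379 pooled TPM in pup 1 and 11857 in pup 2, 4.71-fold its deposited mean. mt-Co2 went to 5531 and 6169, which is 1.85-fold, and mt-Co1 to 5024 and 5356, which is 1.41-fold. The summed level of the 3 genes was 22657 ± 1024 pooled TPM against 9305 ± 1016 as deposited (SD, n = 2), so that complex IV passed complex V, whose 2 genes summed to 18756 ± 1704 pooled TPM. Pooled, the order within complex IV was turned around to mt-Co3, mt-Co2, mt-Co1 in both livers.

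In complex I the 2 shortest genes moved most. mt-Nd4l went to 839 pooled TPM in pup 1 and 979 in pup 2, 10.7-fold its deposited mean, and mt-Nd3 to 2413 and 2657, which is 4.15-fold. mt-Nd4 stayed at 1368 and 1550 and mt-Atp6 went to 10335 and 11684, which is 1.03-fold. The 13 mRNAs then held 3.09% of expected counts in pup 1 and 3.42% in pup 2, against 2.18% and 2.47% without the copies.

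**Figure D3:**
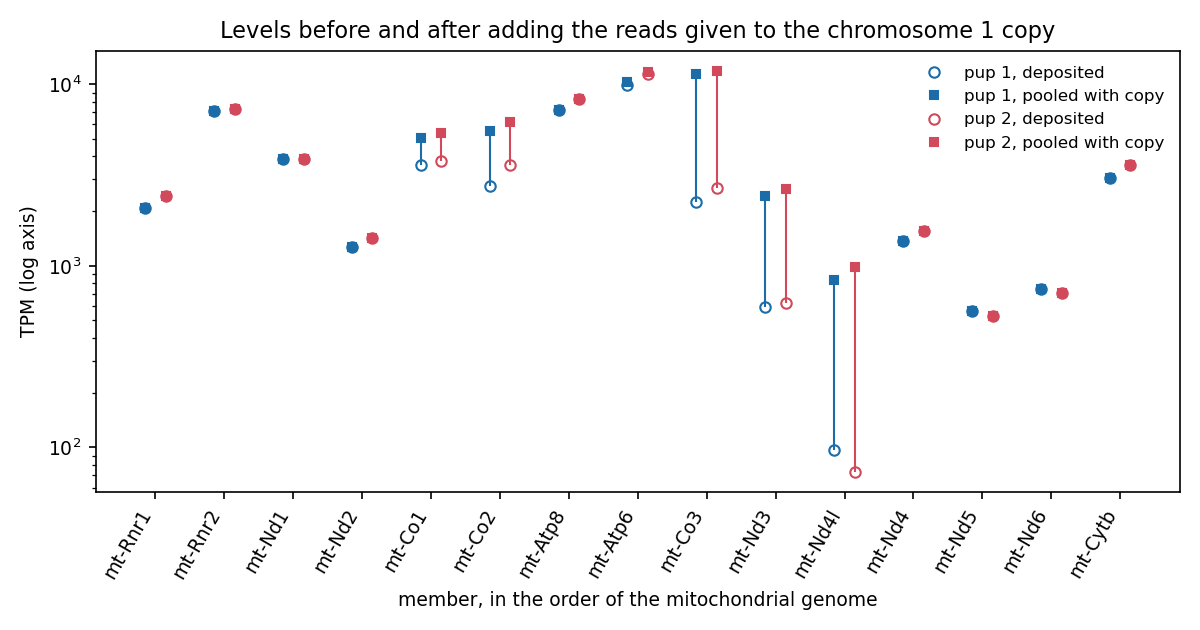
TPM as deposited (open circles) and after the counts of the chromosome 1 copy were added (filled squares) for the 15 members (x axis, genome order) in the 2 livers; the y axis is a log scale. Pooled means are 10.7-fold the deposited ones for mt-Nd4l, 4.71-fold for mt-Co3 and 4.15-fold for mt-Nd3, and members without a copy do not move.

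From high to low, the pooled order was mt-Co3, mt-Atp6, mt-Atp8, mt-Rnr2, mt-Co2, mt-Co1, mt-Nd1, mt-Cytb, mt-Nd3, mt-Rnr1, mt-Nd4, mt-Nd2, mt-Nd4l, mt-Nd6 and mt-Nd5. Neighbours in this order whose values overlapped between the livers were mt-Co3 and mt-Atp6, mt-Atp8 and mt-Rnr2, mt-Nd3 and mt-Rnr1, and mt-Nd4 and mt-Nd2. The order was the same in each liver. As deposited, mt-Co3 stood in place 8 of 15 and mt-Nd4l in place 15. The 3 highest pooled mRNAs, mt-Co3, mt-Atp6 and mt-Atp8, are neighbours on the genome with no tRNA between them, and the 3 lowest include both genes of the mt-Nd5 and mt-Nd6 overlap.

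The 11 ratios compared were between members that share a complex or a ribosome or that lie on either side of a tRNA gene. Of these, 10 were larger than the replicate spread as deposited and 11 of 11 after pooling. The rule asked for the same side of 0 in both livers and a mean over 3 SD from 0. That SD does not include the uncertainty of dividing reads between a member and its copy. For the deposited mt-Co1 over mt-Co3, which passed, the credible interval of mt-Co3 in pup 1, 1462 to 8442 TPM, held the 3572 TPM of mt-Co1. mt-Nd4 and mt-Nd4l, which overlap and are known to share 1 mature mRNA, differed by 4.11 ± 0.40 on the log2 TPM scale as deposited, or 17.3-fold. Pooled, the same ratio was 0.68 ± 0.030 (SD, n = 2), or 1.61-fold. mt-Co1 over mt-Co3 went from 0.58 ± 0.12 to −1.16 ± 0.023 and mt-Co2 over mt-Co3 from 0.35 ± 0.089 to −0.99 ± 0.069, so that both changed sign. mt-Co1 over mt-Co2, 0.23 ± 0.21 as deposited, was the one ratio within the spread, and it was −0.17 ± 0.046 pooled. Ratios among genes that share no window stayed as they were, such as mt-Nd1 over mt-Nd5 at 2.82 ± 0.062, or 7.05-fold, and mt-Rnr2 over mt-Nd1 at 0.89 ± 0.027.

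Between the littermates each of these RNAs was less than 2-fold apart, and as deposited their median log2 ratio lay above that of all genes compared. On log2(TPM + 1) as deposited, 11 members were higher in pup 2 and 4 lower, with a median of 0.165 and a range from −0.38 for mt-Nd4l to 0.37 for mt-Co2. Across the 12711 genes whose mean TPM reached 1, the median was −0.051 (SD 0.317 over genes), and across the 237 genes that reached 500 TPM it was 0.010 (SD 0.126). Both sets include members and chromosome 1 copies. Scaled to the ERCC total, the member median was −0.046 in place of 0.165, with 4 members higher in pup 2; that scaling moved the median of all genes by −0.199, and relative to it the member median was 0.203. No member was 2-fold apart, by a rule that asked for a log2 ratio of 1 or more in size and credible intervals that do not overlap, while 0.629% of the 12711 genes were, 0.566% with pup 2 higher and 0.0629% with pup 2 lower.

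The outlying values belonged to genes with copies. mt-Nd4l was at −0.38 as deposited and 0.22 pooled, and mt-Co2 at 0.37 as deposited and 0.16 pooled. Pooled, the 15 members ran from −0.088 to 0.23 with a median of 0.157, and 12 were higher in pup 2. The 3 that were not were mt-Nd1 at nearly 0, mt-Nd5 at −0.088 and mt-Nd6 at −0.073. The 7 members that share no window had a median of 0.038. mt-Cytb was the highest of these 7, with a ratio of expected counts, each taken per library total, of 1.20 (95% interval 1.19 to 1.21, counting error only), and mt-Nd5 the lowest, with 0.962 (0.948 to 0.977).

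**Figure D4:**
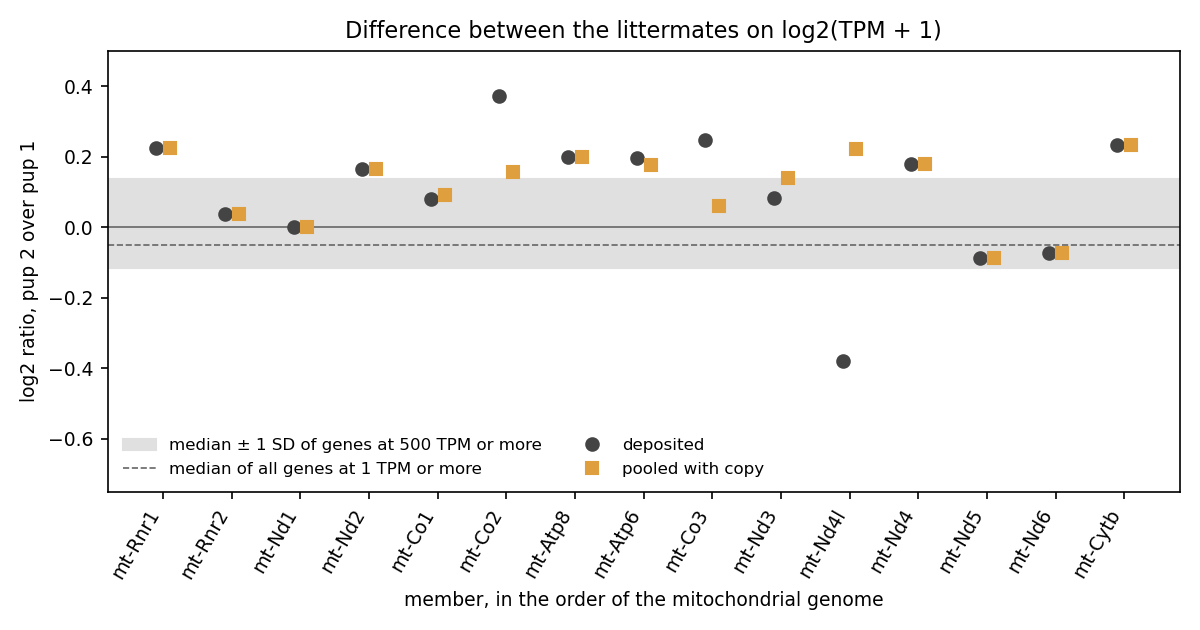
Log2 ratio of pup 2 over pup 1 on log2(TPM + 1) (y axis) for the 15 members (x axis, genome order), as deposited (circles) and pooled with the copy (squares); the grey band is the median ± 1 SD of the 237 genes at 500 TPM or more and the dashed line the median of all 12711 genes. mt-Nd4l moves from −0.38 to 0.22 on pooling, and mt-Nd5 and mt-Nd6 lie below 0 in both forms.

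The credible intervals of the 2 livers did not overlap for 9 members, of which mt-Rnr1, mt-Rnr2, mt-Nd2, mt-Co1, mt-Atp8, mt-Nd4 and mt-Cytb were higher in pup 2 and mt-Nd5 and mt-Nd6 lower. Over all genes 6.27% were apart with pup 2 higher and 13.8% with pup 2 lower. Among the 237 genes at 500 TPM or more, where counting error is small, the shares were 34.6% and 24.5%. These sets include members and chromosome 1 copies. The 7 and 2 of 15 members are to be read against these, and each rests on 1 library per animal. The 6 that overlapped were mt-Nd1 and the 5 genes with the widest intervals, mt-Co2, mt-Atp6, mt-Co3, mt-Nd3 and mt-Nd4l.

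Other tissue moved with the same contrast. The 4 hepatocyte markers were detected in both livers and summed to 71350 TPM in pup 1 and 65689 in pup 2. Alb, Trf and Ttr were lower in pup 2, at log2 ratios of −0.11, −0.23 and −0.24, and Apoa1 was higher at 0.012. The intervals of the 2 livers did not overlap for any of these 4. The same was so for 59.1% of the 237 genes at 500 TPM or more, in either direction. All 5 striated muscle markers were at least 2-fold higher in pup 2, and their summed level was 31.0 TPM in pup 1 and 625 in pup 2, with skeletal actin (Acta1) at 16.3 and 310 and myoglobin (Mb), the lowest, at 0.23 and 4.88. Ckm, Myl1 and Tnnc2 had log2 ratios between 3.89 and 4.42. All 4 markers of the exocrine pancreas were higher there too, summing to 1.96 and 87.4 TPM, with chymotrypsinogen (Ctrb1) at 0.11 and 33.6. Clps, Cela2a and Cpa1 had log2 ratios between 1.55 and 4.08. Muscle is rich in mitochondria, and the part of these tissues and of the lower hepatocyte markers in the littermate differences of the members was not tested. The erythroid markers Hbb-bs, Alas2 and Hba-a1 had log2 ratios of 0.10, 0.046 and 0.014, and among them the intervals of Alas2 alone overlapped.

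The nuclear genes that copy, transcribe, process and translate mitochondrial DNA and its RNAs had list medians far below that of the mitochondrial mRNAs. Of 85 listed symbols 82 matched a row, 81 reached 1 TPM in both livers and none was 2-fold apart, against 0.629% of all genes. Between the livers 32 were higher in pup 2 and 49 lower, with a median log2 ratio of −0.033 beside −0.051 for all genes. Of the 81 whose mean TPM reached 1, intervals did not overlap for 3 with pup 2 higher and 7 with pup 2 lower, beside 6.27% and 13.8% of all genes.

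For replication and packaging of the DNA, 11 of 11 matched genes were detected, with a median of 7.87 ± 0.453 TPM (SD, n = 2). The highest was Ssbp1, the mitochondrial single-strand binding protein, at 54.1 TPM in pup 1 and 56.0 in pup 2. Next came Tfam, which coats the DNA and helps to start its transcription, at 28.9 and 31.9, and Dguok, a kinase for DNA precursors, at 21.99 and 21.0. The lowest was Rrm2b, a subunit of ribonucleotide reductase, at 3.33 and 2.57.

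For transcription 8 of 9 were detected, with a median of 8.87 ± 0.212 TPM. Mterf3, a member of the termination factor family, was at 20.1 TPM in pup 1 and 21.1 in pup 2, the elongation factor Tefm at 15.2 and 15.8 and the initiation factor Tfb2m at 14.3 and 15.4. The mitochondrial RNA polymerase Polrmt was at 11.4 and 8.72 TPM. Mterf1b, at 0.94 and 0.92, was the one listed gene under 1 TPM.

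For cutting, modifying, tailing and decay of the RNAs 31 of 31 were detected, with a median of 9.80 ± 0.424 TPM. Hsd17b10, a subunit of the enzyme that cuts the 5′ ends of the tRNAs, was highest at 173 TPM in pup 1 and 194 in pup 2. Slirp, an RNA-binding partner of Lrpprc that stabilises mitochondrial mRNAs, was at 128 and 115, and Rexo2, an exonuclease for very short RNAs, at 55.0 and 51.1. The lowest was Nsun3, a methyltransferase of a mitochondrial tRNA, at 2.91 and 2.55. For translation 31 of 31 were detected with a median of 10.2 ± 0.884 TPM. Lars2, the mitochondrial leucyl-tRNA synthetase, was listed at 1145 and 1107 TPM, far above the other 30 and above the deposited levels of mt-Nd3, mt-Nd4l, mt-Nd5 and mt-Nd6. Which part of the Lars2 transcript its reads came from cannot be seen in these tables, so this value may not be a level of its mRNA. It was followed by Mrpl58, a peptide release factor of the ribosome, at 77.8 and 80.4 and the elongation factor Tufm at 49.2 and 49.1, and the lowest was the methionyl-tRNA synthetase Mars2 at 1.04 and 1.01. Setting Lars2 aside, each of these genes was below 200 TPM, with Hsd17b10 and Slirp above the deposited level of mt-Nd4l, whereas the 13 mRNAs had a median of 2466 ± 297 TPM as deposited and 3321 ± 379 pooled.

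**Figure D5:**
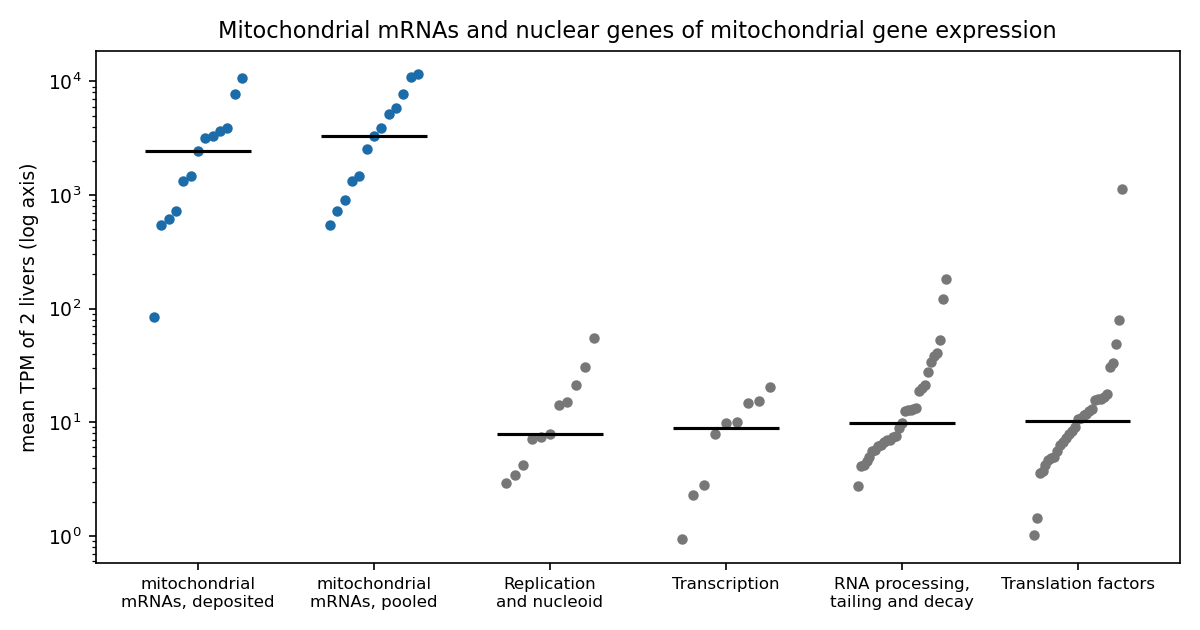
Mean TPM of the 2 livers (y axis, log scale) for the 13 mitochondrial mRNAs as deposited and pooled (blue) and for the nuclear genes of 4 lists (grey); each point is a gene and each line the mean of the 2 livers' medians. The lines of the nuclear lists lie between 7.87 and 10.2 TPM and those of the mRNAs at 2466 and 3321.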

How the data were processed

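RNA of 2 newborn livers was measured; the tables have the layout of the RSEM program. The assembly mm10 and the annotation GENCODE M4 are named in the notes deposited with the files; for the aligner, the counter and their versions no name was found, so they count as not given in the sources used here. The expected counts that the authors deposited are estimated reads, and their TPM and FPKM are scaled reads per effective length. The authors' credible bounds of TPM (a signal value of unstated level) and posterior SD of the count (a score) were deposited beside a posterior mean estimate, and for abundant genes TPM can lie outside its bounds. Percent values in the authors' transcript tables (a transcript's part of its gene) were not needed, since each member has 1 transcript. Gene and transcript tables gave the same TPM for the 37 members.

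Symbols, coordinates and transcripts came from GENCODE M21 on GRCm38, matched by Ensembl identifier (42462 of 43346 genes); 37 of 37 member lengths equalled the tables. The planned alignment of the whole mitochondrial genome was replaced by blastn 2.17.0 of the 37 member transcripts against all nuclear transcripts, at 90% identity over 100 bases. A count of 0 allows 3 counts, or 0.0712 CPM in pup 1 and 0.0724 in pup 2; such limits describe counting error alone, as reads carry no molecular identifiers. Scaling alternatives used edgeR 4.0.16 (TMM) and DESeq2 1.42.0 (size factors) in R 4.3.3, on expected counts rounded to whole numbers, and no count test was run. Python 3.11.15, pandas 2.3.3, numpy 2.4.6, scipy 1.17.1 and matplotlib 3.10.9 did the rest. The 2-fold rule was tested on simulated counts without reads shared between genes, and the counting of substitutions and shared windows on a simulated sequence. Other steps were not tested in this way.

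The members, lists, pairs and rules were chosen with earlier results of these data known. Named were all members, nuclear copies of 100 or more expected counts, the 3 highest and the lowest gene of each list, and the tissue markers; Gm28439, Gm13340, Polrmt and Lrpprc were named outside this rule, after their values were seen.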

Additional observations from a re-analysis of the deposited data

How the results depend on the processing

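No paired analysis was possible because there is 1 group. These levels are limited by the division of reads between members and nuclear copies and by the effective lengths of short genes, and the effect of the unknown priming was not tested. In place of TPM, shares of expected counts were 2.32% for the 13 mRNAs, 1.08% for the rRNAs, 0.671% for complex I, 0.757% for IV and 0.600% for V. With the TPM of all nuclear copies added, the shares were 6.02% for the 13 mRNAs, 1.14% for complex I and 2.68% for IV. There each copy kept its own effective length. Per gene, the counts of these copies were instead added and set over the effective length of the member. Mean levels were then 11618 TPM for mt-Co3, 5852 for mt-Co2, 5191 for mt-Co1, 2535 for mt-Nd3 and 909 for mt-Nd4l. Complex IV was at 1.15% by posterior mean TPM, and complex V at 1.49% with full lengths. The ratio of mt-Co1 over mt-Co2 was reversed to −0.17 with copies added. That of mt-Co1 over mt-Co3 was reversed to −0.27 by posterior mean and −1.16 with copies, and mt-Co2 over mt-Co3 to −0.32 and −0.99, of which −0.32 (SD 0.134) was within the spread. The median log2 ratio of the members between the littermates was 0.198 by CPM and by FPKM, 0.232 by TMM and by DESeq2 size factors, 0.082 by posterior mean TPM and −0.046 by the ERCC total; the cause was not tested. Of genes 2-fold apart, 80 in the main count, there were 22 at a mean TPM of 10 or more and 159 by size alone, with 81.8% and 65.4% of them higher in pup 2. At 95% identity 11 nuclear rows were found in place of 17. With 2 livers, leaving one out gives the value of the other, so it says nothing about stability.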
